A study of Saccharomyces cerevisiae with 30 samples.

Results

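The large subunit of the yeast mitochondrial ribosome was described through its messages, as they were translated by cytosolic ribosomes near the surface of the endoplasmic reticulum (ER) or of mitochondria. Members were chosen by gene name only: any gene named MRPL with a number, plus IMG1, IMG2, MRP7, RML2, MRP20, MRP49, YML6 and MNP1. The rule found 42 members among 5890 listed genes, and 41 of them passed the minimum of 20 counts as a mean over the inputs. MRPL19 (YNL185C), a protein of the factor-binding stalk, was listed at 0 in all 30 libraries with no RPKM value, as were 119 genes in all, and is given no level here.

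Proximity-specific ribosome profiling marks ribosomes near a membrane. A biotin ligase (BirA) fused to a membrane protein biotinylates ribosomes with an acceptor (AVI) tag, and footprints from the streptavidin pulldown are set against those of the whole-cell input. All strains carried RPL16a-HA-TEV-AVI, RPL16b-HA-TEV-AVI, OsTIR1 and srp72-AID-HA, a degron on Srp72, which is part of the signal recognition particle (SRP) that guides secretory ribosomes to the ER. Auxin at 500 µM was given for 0, 15, 30 or 60 min, so the cultures at 0 min carry the degron as well and no strain without it was analysed here.

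There were 15 pairs of input and pulldown in 5 series. SEC63-mVenus-BirA (ER) was sampled at 0, 15, 30 and 60 min after 2 min of cycloheximide at 100 µg/ml and a 2 min biotin pulse, and again at 0, 30 and 60 min with no cycloheximide and a 1 min pulse. BirA-mVenus fused to the UBC6 tail anchor (ER), driven by pSEC63 from the his3 locus, was sampled at 0, 15, 30 and 60 min with cycloheximide. TOM20-mVenus-BirA and OM45-mVenus-BirA (mitochondrial outer membrane) were sampled at 0 and 30 min with cycloheximide. The strain background was W303 for Tom20 and S288C for the rest, so bait and strain cannot be told apart there. Each condition had 1 library, and the series is the unit that repeats. Whether the series came from separate cultures on separate days is not stated, so p-values measure only the spread between these series. In the cycloheximide comparison they measure only the spread between matched auxin times.

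The mitochondrial ribosome translates a handful of membrane subunits of the respiratory chain encoded in mitochondrial DNA. Its large subunit joins amino acids at the peptidyl transferase centre and lets the new chain leave through an exit tunnel that faces the inner membrane. In yeast its proteins are all encoded in the nucleus, made by cytosolic ribosomes and imported through the outer-membrane translocase, for which Tom20 is a receptor. Some have counterparts in bacterial ribosomes, and others occur in mitochondria only.

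Counts of the listed genes ranged from 2.04 M to 113 M per input and from 4.86 M to 103 M per pulldown. The lowest count of any tested member was 29 in an input (Ubc6 series, 0 min) and 45 in a pulldown (Ubc6 series, 0 min). All 8 ER surface markers were enriched by log2 1 or more in at least 1 of the 3 ER pairs at 0 min. Of 8 mitochondrial markers, 7 were enriched in both mitochondrial pairs, and TOM22 (152 codons) was not. SRP72 itself had 108 to 123 CPM (counts per 1 M) in the inputs at 0 min and 69.6 to 86.6 at 60 min, but the degron acts on the protein, so its message does not check the depletion.

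Large-subunit messages took up 0.148% to 0.285% of input counts (median 0.180%) and 1.03% to 1.55% of counts in the 4 mitochondrial pulldowns. In the 11 ER pulldowns the share ran from 0.0445% to 0.208%. Counting error was small beside these differences: the Wilson 95% interval was 1.55% to 1.56% in the Tom20 pulldown at 0 min and 0.283% to 0.287% in its input. These intervals cover counting error only, and amplified reads are not independent molecules.

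Without auxin, 22 of the 41 members with counts were enriched at mitochondria, which is called here a log2 pulldown/input of at least 1 in both the Tom20 and the Om45 pair. Another 4 passed in the Tom20 pair only, and 15 passed in neither. Over all genes tested, 11.4% passed in both pairs. The split is a description made from these pairs, and no test between its classes was made on them. A wide gap lay within the enriched class and not at the threshold: no member's mean over both pairs lay between MRPL31, at 1.36, and MRPL4, at 2.85. Just inside the threshold was MRPL31, with 1.68 at Tom20 and 1.04 at Om45. Just outside was MRPL35, with 1.37 and 0.67.

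**Figure D1:**
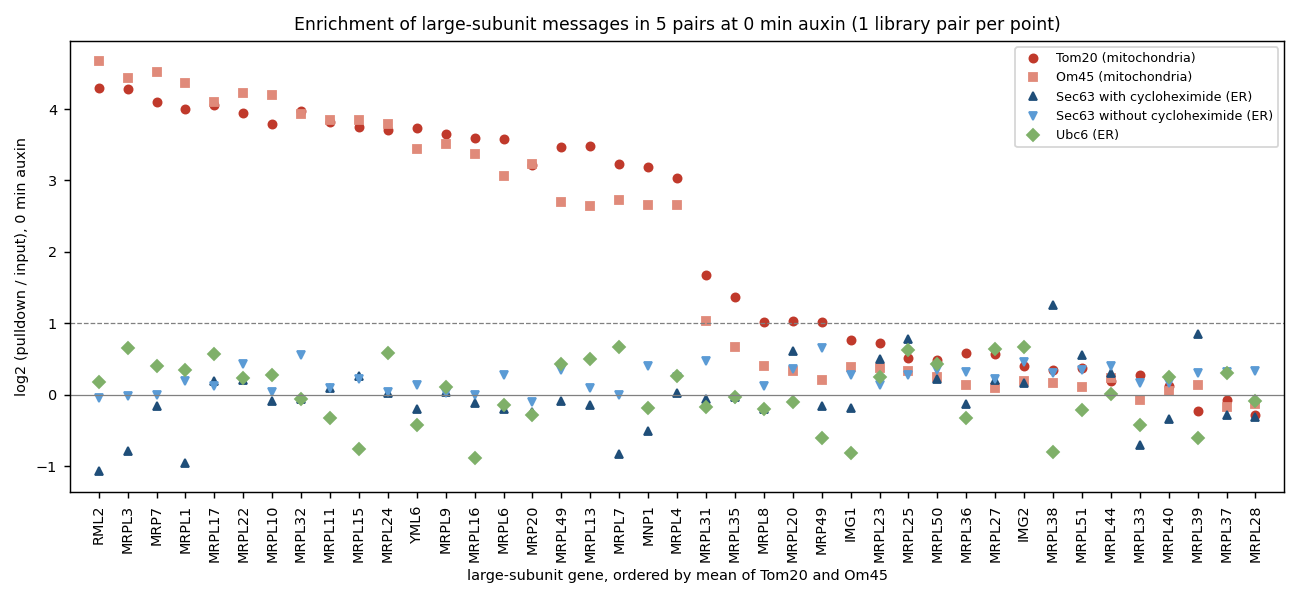
Log2 pulldown/input of the 41 large-subunit genes with counts in the 5 pairs at 0 min auxin, 1 library pair per point, ordered by the mean of Tom20 and Om45. The dashed line marks the threshold of 1. The first 21 genes lie at 2.64 or more in both mitochondrial pairs, MRPL31 and the 4 mixed genes lie near the line, and only MRPL38 passes it in an ER pair.

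The catalytic core list held 6 proteins around the peptidyl transferase centre, and all 6 were enriched, with a median of 3.79. RML2 (YEL050C, chromosome V 59670 to 60851), the counterpart of a bacterial protein needed for peptide bond formation, had the highest mean of any member. Its log2 enrichment was 4.30 at Tom20 and 4.67 at Om45, against -1.07 at Sec63 with cycloheximide, 0.17 at Ubc6 and -0.04 at Sec63 without the drug. MRP7, whose bacterial counterpart reaches toward the transfer RNAs, stood at 4.10 and 4.52. MRPL10 followed at 3.79 and 4.19, and YML6, which lines the tunnel, at 3.74 and 3.44. MRPL9 and MRPL16 had means of 3.58 and 3.48. Both mitochondrial pairs lay above all 3 ER pairs for each of these genes.

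The stalk, which recruits translation factors, has 3 members in the list and 2 with counts. MRPL11 (YDL202W, chromosome IV 98475 to 99224), at the stalk base, had 3.82 at Tom20 and 3.84 at Om45. MNP1 (YGL068W, chromosome VII 375087 to 375671), the counterpart of the mobile bacterial stalk protein, had 3.19 and 2.65. Both were enriched.

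Around the tunnel exit, 4 of 5 members were enriched. MRPL22 (YNL177C, chromosome XIV 303686 to 304615) had 3.94 and 4.22, MRP20 3.21 and 3.23, MRPL4 3.04 and 2.66, and MRPL13 3.48 and 2.64. The exception was MRPL40 (YPL173W, chromosome XVI 223143 to 224036), with 0.12 at Tom20 and 0.05 at Om45 and -0.34, 0.24 and 0.16 in the ER pairs. Its values at both surfaces overlapped, although its 297 codons put it among the longer members.

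By origin, 17 of 26 members with bacterial counterparts were enriched, and the median over all 26 was 3.15. Of 15 specific to mitochondria 5 were enriched, and the median over all 15 was 0.61. Those 5 were MRPL3, an RNase III-like protein with 4.28 at Tom20 and 4.43 at Om45, MRPL17, MRPL15, MRPL13 and MRPL31. These groups also differed in coding length, with a median of 243.5 codons over the 26 and 147 over the 15. The median was 304 codons over the catalytic core and 162 over members outside the core, stalk and tunnel exit. The part of length in the differences by origin or role was not tested. Among other members with bacterial counterparts, MRPL1, at the stalk where transfer RNA leaves, had 4.00 and 4.37. MRPL32 (YCR003W, chromosome III 118620 to 119171), whose maturation by the inner-membrane m-AAA protease is needed for assembly, had 3.97 and 3.93 with only 183 codons.

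The 8 lowest means belonged to MRPL28, MRPL37, MRPL39, MRPL40, MRPL33, MRPL44, MRPL51 and MRPL38. MRPL28 was lowest, at -0.29 and -0.13. MRPL39 had -0.23 and 0.13, and MRPL33 0.27 and -0.08. MRPL38 had 0.34 and 0.16 at mitochondria but 1.26 at Sec63 with cycloheximide, -0.80 at Ubc6 and 0.30 at Sec63 without it, so the 3 ER pairs did not share a direction.

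The 4 mixed genes were MRPL35, MRPL8 (1.01 at Tom20, 0.41 at Om45), MRPL20 (1.03 and 0.33) and MRP49 (1.02 and 0.20). All 4 were higher in the Tom20 pair, which follows from having passed there only. Below them, IMG1 (0.76 and 0.39) and MRPL36 (0.58 and 0.14) were higher at Tom20 as well. At the upper end RML2, MRP7 and MRPL1 were higher in the Om45 pair. Across the 41 members both pairs were nonetheless close to 1 line, with a Pearson r of 0.98 over genes, which share libraries and are not independent replicates.

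In the edgeR quasi-likelihood fit of the 10 libraries at 0 min, 23 of 41 members were enriched at mitochondrial baits and 0 were depleted, where 11.6% and 0% of all genes tested were. The 23 were the 22 enriched members and MRPL35 (1.02 ± 0.23 SE, n = 2 series, adjusted p = 0.037 by edgeR). This overlap is not separate evidence, because the fit holds the pairs that made the split. RML2 had a log2 enrichment of 4.48 ± 0.40 (SE, n = 2, adjusted p = 0.00076 by edgeR). With the Tom20 series left out the count was 19.

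At ER baits 0 of 41 members were called in either direction by edgeR, where 15.2% of all genes were enriched and 0.889% depleted. DESeq2 also called 0, and 1 member had an unadjusted p under 0.05, MRPL25 with 0.54 ± 0.18 (SE). Scaling by library totals in place of TMM called 27 members and 59.7% of all genes lower, with the median of all genes at -1.06 in that setting.

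The difference between baits, ER minus mitochondria, passed the edgeR threshold as negative for 22 of 41 members and as positive for none, against 10.8% and 9.48% of all genes. The members' median difference was -2.67, and that of all genes tested -0.05. These were the same 22 members that passed the threshold in both mitochondrial pairs. The split and this fit share those pairs, so the match is not separate evidence. For 25 of 41 members both mitochondrial pairs exceeded all 3 ER pairs, which held for 22.9% of all genes.

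Enriched members were mostly the longer ones. Their coding length ran from 131 to 393 codons (median 266.5), and that of the other 19 from 70 to 367 (median 146). Among members, coding length and mean mitochondrial enrichment had a Spearman rho of 0.75 and a Pearson r of 0.73 (n = 41 genes, given as a description). Within the enriched members rho was 0.56 (n = 22). Over all 5286 genes tested rho was -0.07, and over the small-subunit list 0.79 (n = 33). MRPL35 (367 codons) and MRPL40 (297 codons) were long without passing the threshold in both pairs, and MRPL31 (131 codons) was short and passed.

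**Figure D2:**
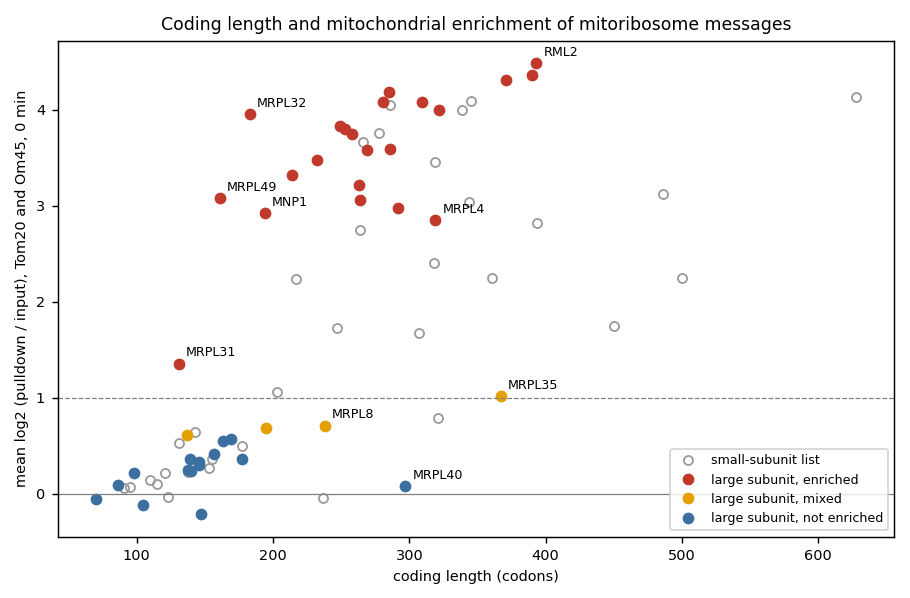
Coding length in codons against mean log2 pulldown/input over the Tom20 and Om45 pairs at 0 min, for 41 large-subunit genes (filled, coloured by class) and 33 small-subunit genes (open circles). Enriched genes have a median of 266.5 codons and the other large-subunit genes 146; MRPL40 and MRPL35 lie low for their length.

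Length also moved with footprint density. The authors' RPKM, counts scaled by gene length and library, allow members to be compared with each other in the inputs. Coding length and median RPKM over the 5 inputs at 0 min had a rho of -0.78 (n = 41), and enrichment and RPKM a rho of -0.64. RPKM divides counts by length, so a negative rho with length can be built in by that division. The same holds for comparisons of RPKM between classes that differ in length. The median RPKM was 52.6 over enriched members and 83.4 over those not enriched. The part of footprint density or of length in the enrichment was not tested.

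MNP1 had the highest median input density, 205 RPKM, with 224 in the Sec63 series with cycloheximide, 144 in Ubc6, 205 in Sec63 without the drug, 328 in Tom20 and 202 in Om45. MRPL39 followed at 146 RPKM and MRPL31 at 120. In the Tom20 input MRPL39 was above MNP1 (350 against 328), so the order of these neighbours differed between inputs. MRPL24 and MRPL40 were lowest, at 40.5 and 40.7 RPKM, and the median of all members was 59.8. The rest lay between 43.3 and 107. Bacterial ribosomes carry several copies of the counterpart of MNP1.

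**Figure D3:**
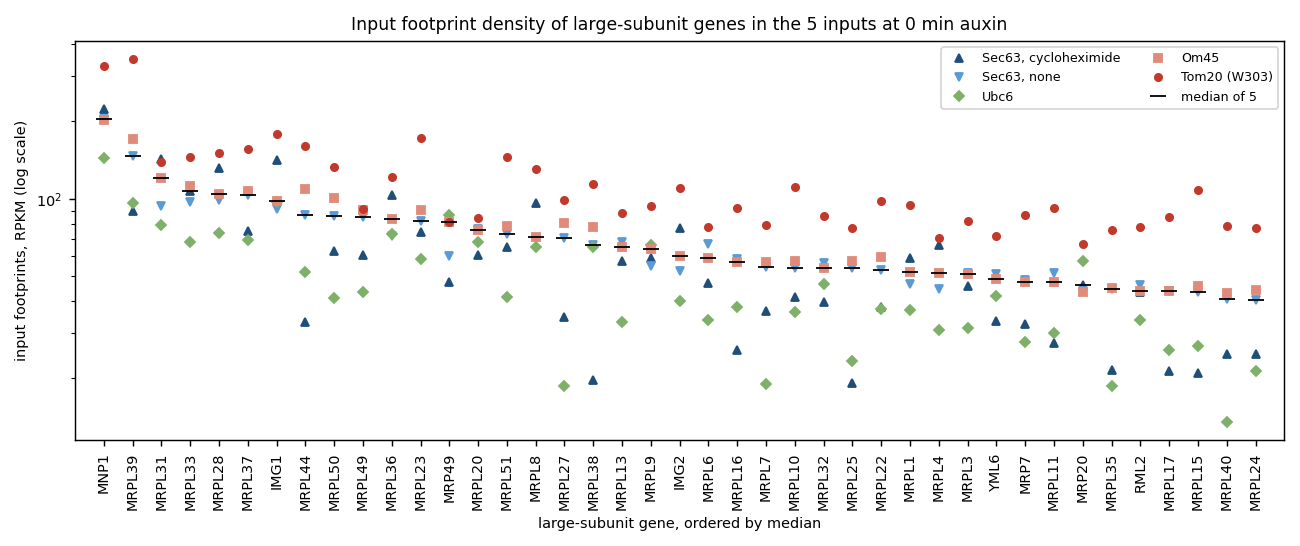
Input footprint density (the authors' RPKM, log axis) of 41 large-subunit genes in the 5 inputs at 0 min auxin, ordered by the median (black bar). MNP1 leads with a median of 205 RPKM; Tom20 (W303) points lie highest for most genes.

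The Tom20 input stood apart. In CPM it was the highest of the 5 inputs at 0 min for 33 of 41 members, against 26.5% of all genes tested. RML2 had 87.1 CPM in it and 47.9 to 62.1 in the other 4. At 30 min the members' share was again highest in the Tom20 input, 0.239% against 0.148% to 0.204% in the other inputs. RML2 had 81.2 CPM there. Strain, bait and series cannot be told apart here. Enrichments are ratios within a pair, so each was set against its own input.

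After auxin, some large-subunit messages rose in the ER pulldowns. In the joint edgeR fit of 30 libraries, 0 members passed after 15 min (4 at an unadjusted p under 0.05; DESeq2 called 1), where 0% of all genes did so too and 885 had an unadjusted p under 0.05. After 30 min 13 of 41 rose and 0 fell, against 8.85% and 11.5% of all genes. After 60 min 26 rose and 0 fell, against 23.1% and 12.3%. The members' median change was 0.38 at 30 min and 0.66 at 60 min, and that of all genes tested 0.15 and 0.29. All 13 members called at 30 min were among the 26 at 60 min. Both changes start from the same 0 min pairs, so this overlap is not separate evidence.

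MRPL11 changed most. Relative to the median of all genes in the same pair, its log2 enrichment at Sec63 with cycloheximide was 0.11, 1.42, 2.36 and 2.57 after 0, 15, 30 and 60 min. At Ubc6 it was -0.44, 0.79, 1.67 and 2.00. At Sec63 without cycloheximide it was 0.05, 1.20 and 1.24 after 0, 30 and 60 min. Every later ER pair lay above every ER pair at 0 min. At Tom20 it was 3.82 at 0 and 3.60 at 30 min, and at Om45 3.77 and 3.70. The fitted change at ER baits was 1.91 ± 0.23 at 30 min (SE, n = 3 series, adjusted p = 0.00021 by edgeR) and 2.24 ± 0.23 at 60 min, a 4.71-fold rise. Its counts in the pulldowns at 0 min were low, 96 at Sec63 with cycloheximide and 68 at Ubc6, but 978 at Sec63 without it.

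MRPL32 moved the same way. On the same relative scale it was -0.05, 1.12, 1.99 and 2.14 at Sec63 with cycloheximide, and -0.17, 0.72, 1.32 and 1.47 at Ubc6. At Sec63 without the drug it was 0.50, 1.07 and 1.26. Later pairs again lay above all those at 0 min. The fitted change was 1.45 ± 0.24 at 30 min (SE, n = 3, adjusted p = 0.0012 by edgeR) and 1.75 ± 0.24 at 60 min.

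MRPL22 was 0.21, 0.43, 1.23 and 1.51 at Sec63 with cycloheximide, 0.11, 0.73, 1.02 and 1.41 at Ubc6, and 0.38, 1.07 and 1.21 at Sec63 without it. It rose by 1.01 ± 0.15 at 30 min (SE, n = 3, adjusted p = 0.00056 by edgeR) and by 1.41 ± 0.15 at 60 min. MRPL11 and MRPL22 passed at 30 min under every alternative run, and MRPL10, MRPL11, MRPL22 and MRPL32 at 60 min.

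RML2 started from -1.06 at Sec63 with cycloheximide and reached 0.15 at 30 min and -0.06 at 60 min, so its rise of 0.85 ± 0.18 (SE, n = 3, adjusted p = 0.00575 by edgeR) ended near the median of all genes in that series. At Ubc6 it went from 0.06 to 1.06 at 60 min. MRPL44, a member specific to mitochondria that is not enriched there, had 0.31, 1.15, 1.87 and 1.73 at Sec63 with cycloheximide, but 0.36, 0.51 and 0.60 without the drug. It rose 2.15-fold at 30 min and 2.12-fold at 60 min. MRPL33 rose by 0.86 and MRPL31 by 0.77 at 30 min, and MRPL6, MRPL49, MRP7, MRPL25, MRPL10 and MRPL13 by 0.56 to 0.73.

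By class, 10 of the 22 members enriched at mitochondria at 0 min rose at ER baits by 30 min and 19 by 60 min, with medians of 0.57 and 0.87. Of the other 19, 3 and 7 rose, with medians of 0.19 and 0.50. Over all genes tested 8.85% rose by 30 min and 23.1% by 60 min. The split used the mitochondrial pairs and not the ER libraries, and the difference between the classes was not tested. All 6 catalytic core members rose by 60 min (0.53 to 1.05), as did both stalk members and 3 of 5 at the tunnel exit. Of these, MRPL10, MRPL11 and MRPL22 passed under every alternative run. MRPL4 (0.20) and MRPL40 (0.24) did not pass.

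The size of the change depended on the series. Enriched members had a median change from 0 min of 0.84 at 30 min and 1.15 at 60 min at Sec63 with cycloheximide. The medians were 0.54 and 1.11 at Ubc6, and 0.37 and 0.52 at Sec63 without cycloheximide. All genes tested had medians of 0.08 to 0.26 at these times. For the other 19 members the medians at 30 and 60 min were 0.47 and 0.40 at Sec63 with cycloheximide. They were 0.13 and 0.91 at Ubc6, and 0.18 and 0.24 at Sec63 without cycloheximide. In that last series all genes had medians of 0.17 and 0.26. In the Sec63 series with cycloheximide all 22 enriched members exceeded the all-gene median at 30 min, in the Ubc6 series 18 and in the series without the drug 19. Single genes could differ between the ER series: MRPL15 had 1.89 at Ubc6 after 60 min but 0.13 at Sec63 with cycloheximide, and MRPL39 1.32 but -0.41.

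**Figure D4:**
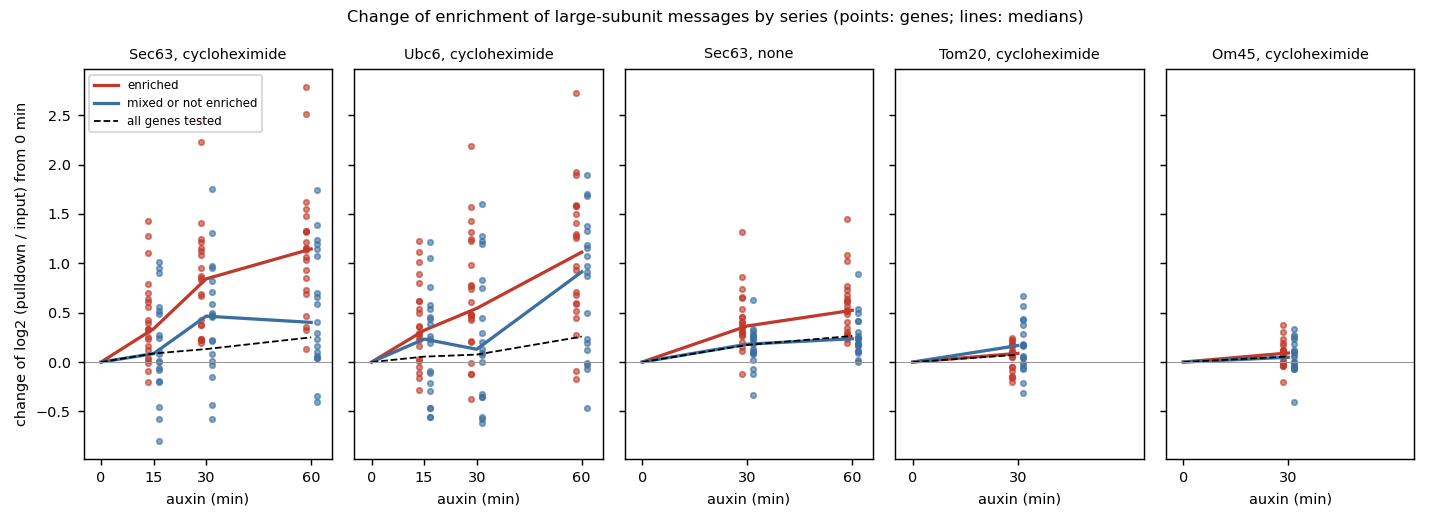
Change of log2 pulldown/input from 0 min in each series against auxin time in minutes, for 22 large-subunit genes enriched at mitochondria at 0 min (red) and the other 19 (blue); points are genes, lines medians, and the dashed line is the median of all genes tested. Enriched genes reach a median of 1.15 at Sec63 with cycloheximide and 1.11 at Ubc6 after 60 min, and stay at 0.09 in both mitochondrial series after 30 min.

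The counts moved with the scaling, the tool, the minimum count and single series. When each pair was centred on its median, 7 members passed at 30 min and 11 at 60 min, where 3.95% and 4.26% of all genes did. DESeq2 called 18 members higher at 60 min, against 6.45% of all genes. With no minimum count 19 passed at 60 min, against 8.85%. Without the Sec63 series with cycloheximide 3 and 4 passed, without Ubc6 3 and 7, without Tom20 6 and 15, and without Om45 6 and 16. Over the same times 7 of 8 ER markers fell in the ER pulldowns (median -1.56 and -2.07). The cytosolic large-subunit list, with 0 of 81 genes called at either surface at 0 min, had 53 of 81 members rising at 60 min with a median of 0.36. The part of these shifts in the members' change was not tested.

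At mitochondrial baits no member passed. After 30 min 0 of 41 members passed in the edgeR fit, and 0 had an unadjusted p under 0.05, where 0.927% of all genes rose and 0.114% fell. DESeq2 called 0 as well. The fitted changes ran from -0.31 to 0.38 with a median of 0.09. At 30 min 21 members were enriched by log2 1 in both pairs, against 22 at 0 min. MRPL32 was 3.97 at 0 and 3.65 at 30 min at Tom20, relative to all genes, and 3.86 and 3.61 at Om45.

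The difference of both 30 min changes, ER minus mitochondria, passed the edgeR threshold as positive for 3 of 41 members, MRPL11, MRPL32 and MRPL22, and as negative for none, against 2.59% and 10.6% of all genes. The difference was 1.96 ± 0.34 for MRPL11 (SE, n = 5 series, adjusted p = 0.0025 by edgeR). It was 1.65 ± 0.36 for MRPL32 (adjusted p = 0.0094 by edgeR) and 1.08 ± 0.23 for MRPL22 (adjusted p = 0.00705 by edgeR). Without the Tom20 series 0 passed, and without Om45 1.

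Few members changed in the inputs. After 15 and 30 min 0 members passed in the edgeR fit of the 15 inputs, with 1 at an unadjusted p under 0.05 at either time. Of all genes 5.24% rose and 8.48% fell at 15 min, and 21.8% and 23.9% at 30 min. DESeq2 called 1 member at 15 min and 0 at 30 min. After 60 min 3 members rose and 3 fell, against 30.6% and 28.2% of all genes, and the members' median was -0.01.

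MNP1 fell most. It had 150 CPM at 0 min and 92.7 at 60 min in the Sec63 series with cycloheximide, 131 and 73.1 in Ubc6, and 120 and 87.6 in Sec63 without the drug. Each series was lower at 60 min. The fitted change was -0.65 ± 0.12 (SE, n = 3, adjusted p = 0.00053 by edgeR), and it passed under every alternative run. MRPL6 and MRPL8 fell by 0.44 each, while MRPL16, MRPL44 and MRPL49 rose by 0.53, 0.69 and 0.39. With TMM over all 30 libraries 0 members rose and 8 fell. MRPL49 lost its call when any series but that of Sec63 with no drug was left out, and its change was then 0.26 at the lowest, with Ubc6 left out. MRPL44 had 11.2 CPM at 0 min in the Sec63 series with cycloheximide, against 23.8 to 44.6 in the other 4 inputs, and its change without that series was 0.35 and did not pass. Without the Ubc6 series 3 members passed. In the same inputs 77 of 81 cytosolic large-subunit genes fell at 60 min, with a median of -1.39.

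Few members differed with cycloheximide in the Sec63 pairs, set against those without it at 0, 30 and 60 min. The repeats were auxin times within the same series, so p-values here do not measure a spread between series. MRPL25 (0.68 ± 0.15 SE, n = 3 matched times, adjusted p = 0.027 by edgeR) and MRPL38 (0.64 ± 0.16, adjusted p = 0.039 by edgeR) were higher with the drug and 0 were lower, against 19.2% and 6.43% of all genes. MRPL25 was higher with cycloheximide at all 3 times, with 0.79, 1.54 and 1.70 against 0.23, 0.69 and 0.86 relative to all genes. Under library totals MRPL25 and MRPL38 changed sign and 34 members were lower, as were 57.4% of all genes. No direction for the group therefore holds across scalings. DESeq2 called 0 members. With the 0 min pairs left out 14 passed, and without the pairs at 30 or at 60 min 0. The biotin pulse differed with the drug, and both cannot be told apart.

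The small-subunit list was split at mitochondria as well. The mean log2 enrichment over both mitochondrial pairs had a median of 1.72 over all 33 genes. In both pairs 18 were enriched, against 11.4% of all genes tested. Lower at ER than at mitochondrial baits were 18, against 10.8%. At ER baits 6 rose by 30 min and 17 by 60 min, where 8.85% and 23.1% of all genes did. In the inputs 5 rose and 1 fell at 30 min, against 21.8% and 23.9% of all genes. With cycloheximide 0 were higher and 3 lower at Sec63, against 19.2% and 6.43%. RSM22, a putative methyltransferase, and RSM24 had means of 4.13 and 3.45, and MRPS5 1.68. All 20 genes of the assembly and mitochondrial translation factor list were enriched, including TUF1, the mitochondrial elongation factor Tu, at 4.22 and MEF1, elongation factor G, at 4.24. At ER baits 4 of these 20 rose by 30 min and 10 by 60 min, where 8.85% and 23.1% of all genes did. Their median changes were 0.39 and 0.63. TUF1 was among the largest, with 1.43 at 30 min and 1.91 at 60 min. None of 81 cytosolic large-subunit genes was enriched at mitochondria. Large-subunit proteins outside the name rule split too: MHR1 had 3.33 and 2.85, while RTC6 (0.30 and 0.23) and MRX14 (0.24 and 0.03) were not enriched and have 93 and 105 codons. Of 8 genes of SRP and its receptor none was enriched at mitochondria.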

How the data were processed

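The deposited tables gave, per the file headers, a footprint count and an RPKM value made by the authors for each gene in each of 30 libraries. Per the submitters' processing notes, CASAVA, Bowtie 1.1.2, TopHat2 2.1.1 and the build sacCer3 were used. How molecular identifiers, strand and multiple matches were handled is not given in the sources used here. Members matched RefSeq R64 symbols (42 of 42), which gave coordinates, and coding lengths came from counts over RPKM and RefSeq spans.

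The main test was edgeR 4.0.16, quasi-likelihood (R 4.3.3; counts scaled by TMM within the libraries of each fit, pair as a block, 2-sided, Benjamini-Hochberg over 5286 genes averaging 20 or more counts over the inputs, threshold 0.05). It was also run on simulated counts with the same fixed spread for every gene and no variation between series of a surface. These data do vary between series, so that run does not give the error rate here. The fits left 3 (0 min), 6 (joint), 7 (inputs, series as a block) and 2 (cycloheximide) residual degrees of freedom. Log2 enrichment per pair used a prior count of 1. Alternatives were library totals, centred pairs, DESeq2 1.42.0, other minimum counts, thresholds and prior counts, each series or time left out, and TMM over all 30 libraries, which was added after seeing the data. Named genes were the 8 highest and 8 lowest members by mitochondrial mean, up to 8 called per direction and comparison, and fixed examples. Members and lists were chosen with earlier results of these data known, so no list is independent evidence.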

Additional observations from a re-analysis of the deposited data

Results flagged for a closer look

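For 3 members the change at ER baits after 30 min differed from that at mitochondrial baits by a test of the difference itself. Over all genes 2.59% passed as positive and 10.6% as negative. Without the Tom20 series 0 members passed, so none of the 3 was called under every alternative run. The difference was 1.96 for MRPL11, 1.65 for MRPL32 and 1.08 for MRPL22 on the log2 scale (adjusted p of 0.0025, 0.0094 and 0.00705 by edgeR). In the ER series the change of MRPL11 from 0 to 30 min was 2.44, 2.18 and 1.32, and in the mitochondrial series -0.09 and -0.03. MRPL32 had 2.23, 1.57 and 0.74, against -0.20 in both mitochondrial series. MRPL22 had 1.21, 0.99 and 0.86, against -0.14 and 0.00.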

How the results depend on the processing

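Of 993 repeats of the members' calls under alternatives, 803 kept direction and side of the threshold, 188 kept direction only and 2 changed sign. The 22 enriched members became 21 to 23 under other thresholds, prior counts and scalings. With library totals 27 members were called at ER baits at 0 min, all lower, where 59.7% of all genes were lower. Higher were 26 in the 30 min change at ER baits and 8 in the difference of 30 min changes, against 30.3% and 5.13%. Lower were 3 in the input change at 30 min and 34 in the cycloheximide comparison, against 33.7% and 57.4%. MRPL25 and MRPL38 changed sign in that comparison, to -0.13 and -0.15. Centred pairs gave 7 members at 30 min and 11 at 60 min. DESeq2 gave 1 member at ER baits at 15 min, 1 in inputs at 15 min and 0 for cycloheximide. TMM over all 30 libraries gave 12 for cycloheximide, all lower, and 8 for inputs at 60 min, all lower, in place of 3 higher and 3 lower. With that scaling 22.8% and 37.0% of all genes were lower. The cause of these moves was not tested.

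With a series left out, calls ranged from 0 to 3 for the ER change at 15 min, 3 to 15 at 30 min and 4 to 26 at 60 min. They ranged from 0 to 6 for the difference of 30 min changes, 0 to 1 for inputs at 15 and at 30 min, and 3 to 5 at 60 min. With a time left out they ranged from 0 to 14 for cycloheximide. The labels give no replicate numbers, so no block by replicate was added. The series was a block in the input fit and the pair of input and pulldown in the others. The lowest count of a tested member was 45 in a pulldown and 29 in an input, both at 0 min in the Ubc6 series.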
